A study of Mus musculus with 58 samples.

Results

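The nuclear receptor superfamily is a family of transcription factors, many of which are switched on or off by a small fat-soluble molecule. The genes described here are 46 listed mouse nuclear receptor genes, of which 44 were measured among the 22180 genes of the arrays. Each was read from the brightest transcript cluster (the group of probes that the array reads for a transcript) that the platform table pairs with that gene symbol alone. Nr1h2 and Nr2e3 had no such cluster and were not analysed here, and Nr1d1 is not on the list. RNA was measured on 58 arrays, 29 of liver tumors and 29 of liver tissue labelled as normal. Every animal, including those that gave the normal livers, had received adeno-associated virus (AAV, a vector used to deliver genes) soon after birth, and all were sampled as adults. The background of all animals was mixed, from 129/Sv, C57BL/6 and FVB/NJ. The labels name neither the vector's promoter nor its dose, and no uninjected liver was used here. Tumors were labelled male in 17 cases, female in 11 and without a sex in 1, and normal livers male in 20 and female in 9. Some titles carry a +/- or -/- mark whose meaning the labels do not give (5 and 5 tumors, 5 and 4 normal livers). The title of normal liver 4 also carries the mark GFP, which the title of tumor 4 from the same animal does not. The arrays came from 39 animals, 18 of which gave both tissues. Tumors 22 and 26 came from the same animal. Normal livers 26 and 27 share an animal number and were counted as 2 animals because 1 carries the +/- and the other the -/- mark.

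Most nuclear receptors bind DNA with a pair of zinc fingers and carry a pocket for a ligand such as a steroid, a thyroid hormone, a retinoid, a fatty acid or a bile acid. Many work as a dimer with a retinoid X receptor (RXR). In the liver they switch drug metabolism, bile acid synthesis, fasting and lipid storage on and off, and HNF4 alpha helps to keep the genes of hepatocytes on. The NR4A receptors differ from these in that no ligand is needed, and their genes are switched on within minutes by hormones, growth factors and stress.

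In tumors the largest change was a loss of Nr1i3, which encodes the constitutive androstane receptor (CAR), a sensor of drugs and foreign compounds. Its RNA was 6.89-fold lower in tumors than in normal liver. The receptors for bile acids (Nr1h4) and thyroid hormone (Thrb) and the estrogen receptor Esr1 also fell, by less, as did the dim Nr1h5. The 3 members of the NR4A group rose, Nr4a1 and Nr4a2 by 1.83-fold and 1.74-fold. Over the 44 genes, 6 were higher in tumors and 14 lower at an adjusted p under 0.05 (limma, Benjamini-Hochberg adjustment over all genes). Higher calls made up 13.6% of the receptor genes against 17.9% of all genes tested, and lower calls 31.8% against 14.3%. With every array centred on its own median the split was 7 higher and 7 lower, against 21.1% higher and 7.79% lower among all genes. Among the 18 pairs on their own, blocked by animal as a fixed effect, it was 6 higher and 8 lower, against 12.6% and 8.13% of all genes. The median log2 change was -0.09 over the receptor genes and -0.02 over all genes.

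**Figure D1:**
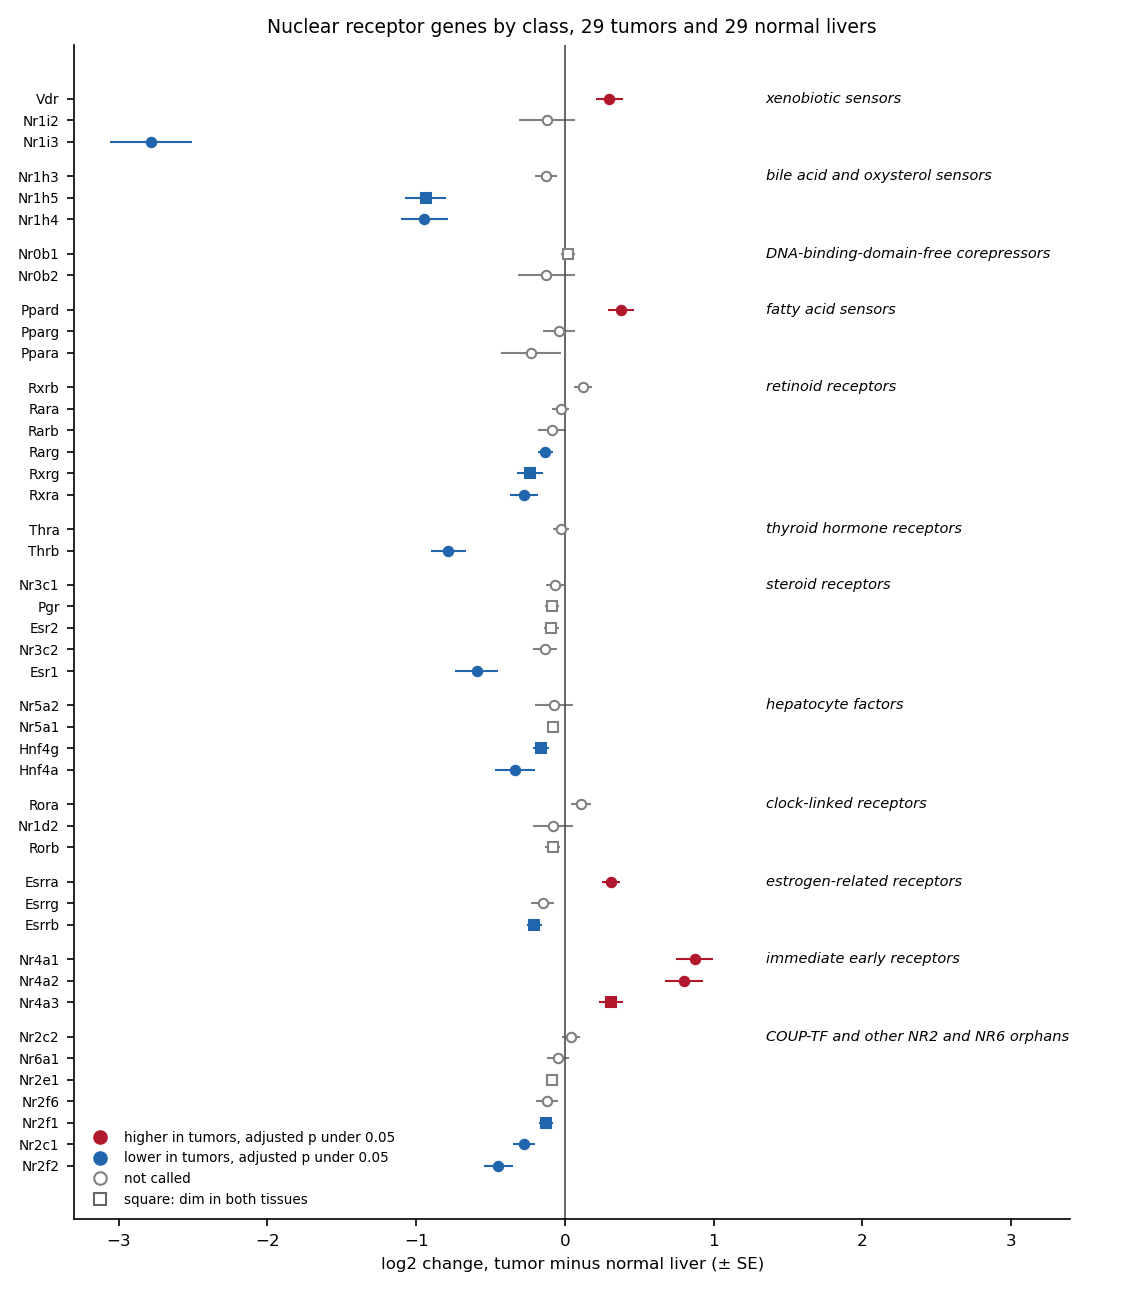
Log2 change (tumor minus normal liver, horizontal axis, bars are SE) of the 44 measured nuclear receptor genes, grouped by class. Red points were higher and blue points lower at an adjusted p under 0.05, open points were not called, and squares are genes dim in both tissues. Nr1i3 lies at -2.78, far to the left of every other receptor gene.

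Some arrays stood apart from the rest. On average tumor 9 correlated least with other arrays (0.873, the next being 0.911). Its log2 values summed over 10 hepatocyte markers came to 72.2, against 115.7 to 124.6 in the other tumors and 117.0 to 125.7 in normal livers. Its sum over 13 markers of T and natural killer cells was 122.2, against at most 98.2 in the other tumors and 101.1 in normal livers. Normal livers 16 and 27 had the lowest Nr1i3, Nr1h4 and Thrb of their group and were picked out by these values, after seeing the data. Without them the normal range of these genes is narrower by construction. Counts of tumors below that narrower range are therefore descriptive only. On 7 arrays, 4 of them tumors, sex-linked genes went against the gender label. All 10 measured hepatocyte markers, among them Alb and Apob, stood above the background limit given next.

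Brightness was read against the genes for odorant receptors, which are taken here as a measure of background. The 95th percentile of their mean log2 values was 7.18 in tumors and 7.29 in normal liver. Of the 44 receptor genes, 30 were brighter than this limit in both tissues, whereas 50.2% of all genes were. Vdr and Nr4a2 passed it in tumors alone. The other 12 (Nr1h5, Nr0b1, Rxrg, Esr2, Pgr, Hnf4g, Nr5a1, Rorb, Esrrb, Nr4a3, Nr2e1 and Nr2f1) were dim in both. A dim gene may be off or merely poorly detected by its probes, and 5 of the 14 lower calls and 1 of the 6 higher calls were of such genes. In whole tissue, fewer cells of a type and less RNA per cell cannot be told apart.

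Nr1i3, the CAR gene, was the only receptor gene called with a change of 1 or more in log2 units. Falls of that size made up 0.947% and rises 1.03% of all genes. Its log2 value ran from 6.80 to 11.56 in tumors with a median of 8.23, against 8.09 to 12.64 in normal livers with a median of 11.38. The groups overlapped, with 12 of 29 tumors below the lowest normal liver. That lowest normal liver was number 27, at 8.09, and the next was number 16, at 9.13. Below the lowest of the other 27 normal livers lay 25 tumors. The fitted log2 change was -2.78 (SE 0.28, adjusted p = 1.32e-11), and 17 of the 18 animals with both tissues had less in the tumor. Tumors 1, 24, 25 and 27 held 11.56, 11.53, 10.74 and 10.68, within the range of the normal livers, so the loss was not shared by every tumor. Without tumor 9 the change was -2.71, and without normal livers 16 and 27 it was -2.98.

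Neither of the other sensors of this group was called lower. Nr1i2 encodes the pregnane X receptor (PXR), which induces the Cyp3a drug-oxidising enzymes. It had a median of 10.56 in tumors and 10.62 in normal livers, and its change was -0.12 (SE 0.19, adjusted p = 0.666). Vdr, the vitamin D receptor gene, which hepatocytes use little, was 1.23-fold higher in tumors (log2 change 0.30, SE 0.09, adjusted p = 0.00934) and higher in 13 of 18 pairs. The mean of the normal livers (7.01) was below the background limit, so this fold is not exact.

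The bile acid receptor gene Nr1h4 encodes FXR, which senses bile acids and shuts down their synthesis. It ran from 6.18 to 9.68 in tumors with a median of 8.77, against 8.11 to 10.35 in normal livers with a median of 9.82. The groups overlapped, and 3 tumors lay below the lowest normal liver, tumor 9 lowest of all. Below the lowest of the other 27, without normal livers 16 and 27, lay 16 tumors. The change was -0.95 (SE 0.16, adjusted p = 2.96e-06), lower in 16 of 18 pairs, and it was -0.84 without tumor 9. Falls of at least 0.5 were called for 5 receptor genes, and for 3.03% of all genes.

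Nr1h5 encodes FXR beta, a relative of FXR that in mice has been described as a receptor for lanosterol. It was dim in both tissues, at 4.88 to 7.22 in tumors with a median of 5.32, against 5.48 to 7.77 in normal livers with a median of 6.36. Tumors sat at the low end, with 20 of 29 below the lowest normal liver. Its log2 change was -0.94 (SE 0.14, adjusted p = 3.01e-07), with 17 of 18 pairs lower. Nr1h3, the gene of the oxysterol sensor LXR alpha, showed a change of -0.13 (SE 0.07, adjusted p = 0.181). The corepressor genes Nr0b2 (SHP, which FXR induces to repress bile acid synthesis) and Nr0b1 had changes of -0.13 and 0.02 with adjusted p of 0.648 and 0.786.

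The upstream stretches of Nr1i3 and Nr1h4 are shown because these were the brighter members with the largest falls. Each is the 250 bases before the gene's annotated start, 5′ to 3′ on the gene's strand, from RefSeq on build GRCm38.p6: chr1:171213720-171213969 (plus strand) for Nr1i3 and chr10:89506659-89506908 (minus strand) for Nr1h4. Capitals mark AGGTCA or its reverse complement TGACCT, the half-site to which nuclear receptors bind.
Nr1i3: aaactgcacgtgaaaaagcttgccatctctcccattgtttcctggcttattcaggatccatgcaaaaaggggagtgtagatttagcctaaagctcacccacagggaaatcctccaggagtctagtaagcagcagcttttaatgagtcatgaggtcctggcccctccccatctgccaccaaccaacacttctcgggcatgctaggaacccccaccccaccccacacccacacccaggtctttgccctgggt
Nr1h4: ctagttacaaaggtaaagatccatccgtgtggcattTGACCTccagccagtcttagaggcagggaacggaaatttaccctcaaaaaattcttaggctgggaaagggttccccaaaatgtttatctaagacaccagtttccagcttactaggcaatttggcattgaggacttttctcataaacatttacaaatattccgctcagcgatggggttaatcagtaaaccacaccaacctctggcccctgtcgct
The Nr1h4 stretch held 1 match and the Nr1i3 stretch held 0. The motif was found in 14% of 32851 promoters of this length, and in 15.8% of 27025 genes with any of their promoters counted. Of the 42 receptor genes with a promoter in the table, 10 held it: 0 of 6 that rose in tumors, 5 of 13 that fell and 5 of 21 uncalled, the rest of the 42 not being measured. A match is a run of letters and was not tested as a binding site.

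Of the thyroid hormone receptors, Thrb, whose product carries most of the liver's response to the hormone, ran from 7.03 to 9.54 in tumors with a median of 8.61. Normal livers lay at 8.34 to 9.93 with a median of 9.48. Most tumors were lower than most normal livers, 6 of them lower than every normal liver, and 19 were below the lowest of the 27 left without numbers 16 and 27. The log2 change was -0.78 (SE 0.12, adjusted p = 3.80e-07), lower in 17 of 18 pairs. Thra, the gene of the form used mainly by heart and bone, had a change of -0.03 (SE 0.05, adjusted p = 0.730).

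Among the steroid receptors Esr1 (estrogen receptor alpha) alone was called. It ran from 7.27 to 9.49 in tumors with a median of 8.65, against 8.34 to 10.32 in normal livers with a median of 9.17. The ranges overlapped for most arrays, and 8 tumors lay below every normal liver. Its change was -0.59 (SE 0.15, adjusted p = 0.00110), with 14 of 18 pairs lower. In the 11 tumors and 11 normal livers of animals without a pair the change was -0.55 with an adjusted p of 0.259. The glucocorticoid receptor gene Nr3c1 and the mineralocorticoid receptor gene Nr3c2, both bright, had changes of -0.07 and -0.13 that were not called. Esr2 and Pgr, the genes of estrogen receptor beta and the progesterone receptor, were dim and not called.

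**Figure D2:**
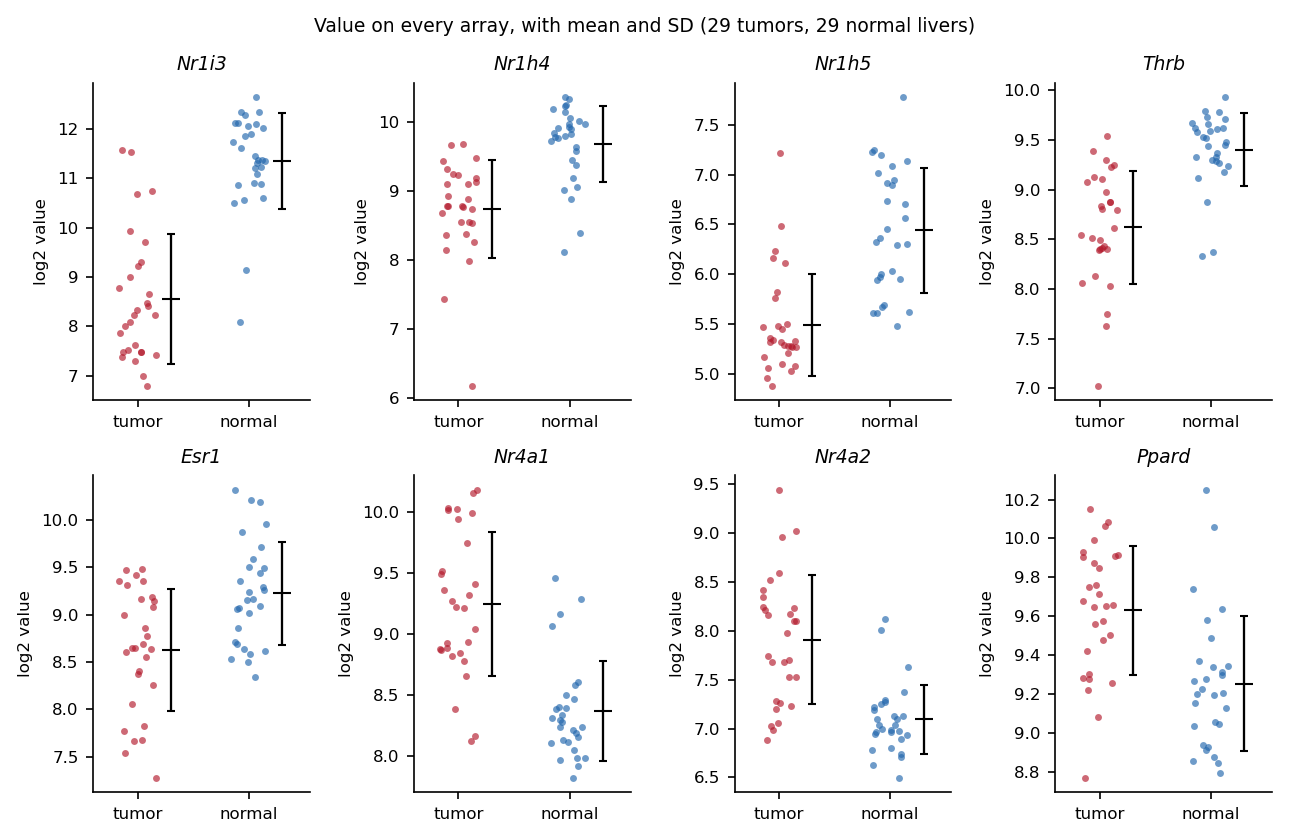
Log2 value on each of the 29 tumor arrays (red) and 29 normal liver arrays (blue) for 8 receptor genes, with the mean and SD as black bars. Nr1i3 lies between 6.80 and 11.56 in tumors and between 8.09 and 12.64 in normal livers, and Nr4a1 and Nr4a2 are the genes with many tumors above the normal range.

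The NR4A genes rose together. Nr4a1 (Nur77) and Nr4a2 (Nurr1) were the only receptor genes called higher by 0.5 or more in log2 units, against 5.23% of all genes. Nr4a1 ran from 8.12 to 10.18 in tumors with a median of 9.22, against 7.82 to 9.46 in normal livers with a median of 8.28. Tumors lay high, with 10 of 29 above the highest normal liver. The log2 change was 0.87 (SE 0.12, adjusted p = 1.31e-07), higher in 16 of 18 pairs. Nr4a2 ran from 6.88 to 9.44 in tumors with a median of 7.97, against 6.49 to 8.12 in normal livers with a median of 7.04. Here 12 tumors exceeded every normal liver, and the 2 highest normal livers were numbers 26 and 27. Its change was 0.80 (SE 0.13, adjusted p = 1.80e-06), higher in 17 of 18 pairs. Its mean in normal livers, 7.09, was below the background limit, so its fold is not exact. Nr4a3 (Nor1), dim in both tissues, was 1.24-fold higher (log2 change 0.31, SE 0.08, adjusted p = 0.00200), and no tumor exceeded the highest normal liver, number 26. Without that liver 5 tumors did.

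Of the 29 tumors, 8 had both Nr4a1 and Nr4a2 above the normal range, 6 had 1 of them and 15 had neither. The 5 receptor genes with falls of at least 0.5 were counted in the same way. None of the 5 was below the normal range in 7 tumors, 1 in 7, 2 in 8, 3 in 3 and 4 in 3, and all 5 were below it in 1, tumor 9. Both a low and a high receptor gene were seen in 11 tumors. The dim Nr1h5 weighed most in the low counts. It was below the normal range in 20 tumors, against 12 for Nr1i3, 8 for Esr1, 6 for Thrb and 3 for Nr1h4. The counts also rest on normal livers 16 and 27. Against the range of the other 27, none of the 5 was low in 4 tumors, 1 in 1, 2 in 3, 3 in 5, 4 in 12 and all 5 in 4, and a low and a high gene were seen together in 13.

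The upstream stretches of the NR4A genes are shown because all 3 were called higher in tumors. They come from RefSeq on build GRCm38.p6, 250 bases before the annotated start and 5′ to 3′ on the gene's strand: chr15:101266596-101266845 (plus strand) for Nr4a1, chr2:57124004-57124253 (minus strand) for Nr4a2 and chr4:48045055-48045304 (plus strand) for Nr4a3. Capitals mark TGACG or its reverse complement CGTCA, the half-site bound by the cyclic AMP response factor CREB.
Nr4a1: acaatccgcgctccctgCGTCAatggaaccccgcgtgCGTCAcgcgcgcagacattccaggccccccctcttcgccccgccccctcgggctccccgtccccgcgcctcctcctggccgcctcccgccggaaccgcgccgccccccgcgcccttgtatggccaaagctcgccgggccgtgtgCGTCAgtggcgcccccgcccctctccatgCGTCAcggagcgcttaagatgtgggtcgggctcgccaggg
Nr4a2: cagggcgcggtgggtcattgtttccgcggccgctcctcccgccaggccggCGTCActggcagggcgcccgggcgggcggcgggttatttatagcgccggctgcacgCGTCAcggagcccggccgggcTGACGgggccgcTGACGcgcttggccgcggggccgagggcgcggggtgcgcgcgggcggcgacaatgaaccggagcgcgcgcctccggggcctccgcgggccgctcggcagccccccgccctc
Nr4a3: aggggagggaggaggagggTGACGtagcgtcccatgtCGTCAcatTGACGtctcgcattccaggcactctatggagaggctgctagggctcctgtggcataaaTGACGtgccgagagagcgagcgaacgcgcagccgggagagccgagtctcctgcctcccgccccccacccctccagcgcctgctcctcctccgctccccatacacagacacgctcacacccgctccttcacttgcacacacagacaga
Each stretch held 4 matches. Among all 32851 promoters of this length 17.8% held at least 1 match, 3.90% at least 2 and 0.137% at least 4. Counted by gene, 19.8% of 27025 held it. Of the 42 receptor genes with a promoter in the table, 13 held the motif, among them 3 of the 6 that rose, these 3, 3 of the 13 that fell and 7 of 21 uncalled. No binding was measured here.

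Among the fatty acid sensors, Ppard (PPAR delta, active in many tissues) was 1.30-fold higher in tumors. It ran from 8.77 to 10.15 in tumors with a median of 9.66, against 8.79 to 10.25 in normal livers with a median of 9.21. The ranges covered each other almost wholly, and the shift was seen in 15 of 18 pairs (log2 change 0.38, SE 0.08, adjusted p = 0.000329). A second cluster shared with another gene symbol gave 0.03 with an adjusted p of 0.764. Ppara, the main liver PPAR, which switches on fatty acid oxidation in fasting, showed -0.23 (SE 0.20, adjusted p = 0.412), and 9 of 18 pairs were lower. Its values ran from 5.71 in tumor 9 to 10.55. Pparg, the fat-storage PPAR, showed -0.04 (SE 0.11, adjusted p = 0.821).

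Among the estrogen-related receptors, which drive genes of mitochondria and need no known natural hormone, Esrra rose 1.24-fold (log2 change 0.31, SE 0.06, adjusted p = 1.03e-04), with 16 of 18 pairs higher. Esrra ran from 8.67 to 9.83 in tumors and from 8.61 to 9.69 in normal livers, and 4 tumors were above the highest normal liver, number 27. Above the highest of the other 27, without numbers 16 and 27, lay 9. Esrrb was dim and fell by 0.20, and Esrrg was not called.

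Changes among the retinoid receptors were small. Rxra, the RXR gene that hepatocytes use most and the partner of CAR, PXR, FXR, LXR and the PPARs, ran from 9.08 to 11.14 in tumors and from 10.36 to 11.37 in normal livers. It fell by 0.28 (SE 0.09, adjusted p = 0.0196), in 13 of 18 pairs, and 6 tumors lay below every normal liver. Rarg (-0.13) and the dim Rxrg (-0.23) were also called lower, Rxrg with an adjusted p of 0.0504 without tumor 9. Rara, Rarb and Rxrb were not called, with changes of -0.03, -0.09 and 0.12.

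Among the hepatocyte factors, Hnf4a, which keeps many liver genes on, ran from 7.53 to 11.42 in tumors with a median of 11.01. Normal livers lay at 10.27 to 11.52 with a median of 11.15. Apart from tumor 9 at 7.53, the lowest tumor stood at 9.83, and 3 tumors were below every normal liver. Below the lowest of the other 27, without numbers 16 and 27, lay 6. The fall of 0.33 (SE 0.13, adjusted p = 0.0464) was 0.21 without tumor 9 (adjusted p = 0.0257). Hnf4g, dim, fell by 0.16. Nr5a2 (LRH-1, a driver of bile acid synthesis) was not called, at -0.07 with all tumors and 0.04 without tumor 9. Nr5a1, an adrenal and gonadal receptor gene, was dim and not called.

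Relative to normal liver, tumor values spread most for Hnf4a, Nr5a2 and Nr1i2. These were the 3 receptor genes whose SD in tumors was at least 2 times that in normal liver, as for 4.57% of all genes. The ratios were 2.71, 2.60 and 2.14. Without tumor 9 they were 1.30, 1.41 and 1.04, and 0 receptor genes reached a ratio of 2. By the SD in tumors alone Nr1i3 spread most, with an SD of 1.31 and a ratio of 1.36.

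Of the orphan receptors of the COUP-TF and related groups, Nr2f2 (COUP-TFII, a regulator of veins and stroma) fell by 0.45 (SE 0.10, adjusted p = 2.64e-04), lower in 17 of 18 pairs. It ran from 7.69 to 9.31 in tumors and from 8.06 to 9.56 in normal livers. Nr2c1 (TR2) fell by 0.27 (SE 0.07, adjusted p = 0.00261), and Nr2f1, dim, by 0.13. Nr2c2, Nr2e1, Nr2f6 and Nr6a1 were not called. The clock-linked receptor genes Nr1d2, Rora and Rorb were not called either, with changes of -0.08, 0.11 and -0.08, although Rora was higher without tumor 9 (log2 change 0.16, adjusted p = 0.0184). Across the 24 uncalled receptor genes the changes ran from -0.23 to 0.12.

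The smaller falls were the least stable. Of up to 14 other ways of processing, the call was lost in 7 for Rarg, in 6 each for Rxrg and Hnf4a, in 5 for Nr2f1, in 4 for Hnf4g and in 3 each for Rxra and Nr2c1. Median centring was among them for all of these. For Vdr, Esrra, Esrrb, Nr4a3, Nr2f2 and Esr1 it was lost only in the animals without a pair.

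**Figure D3:**
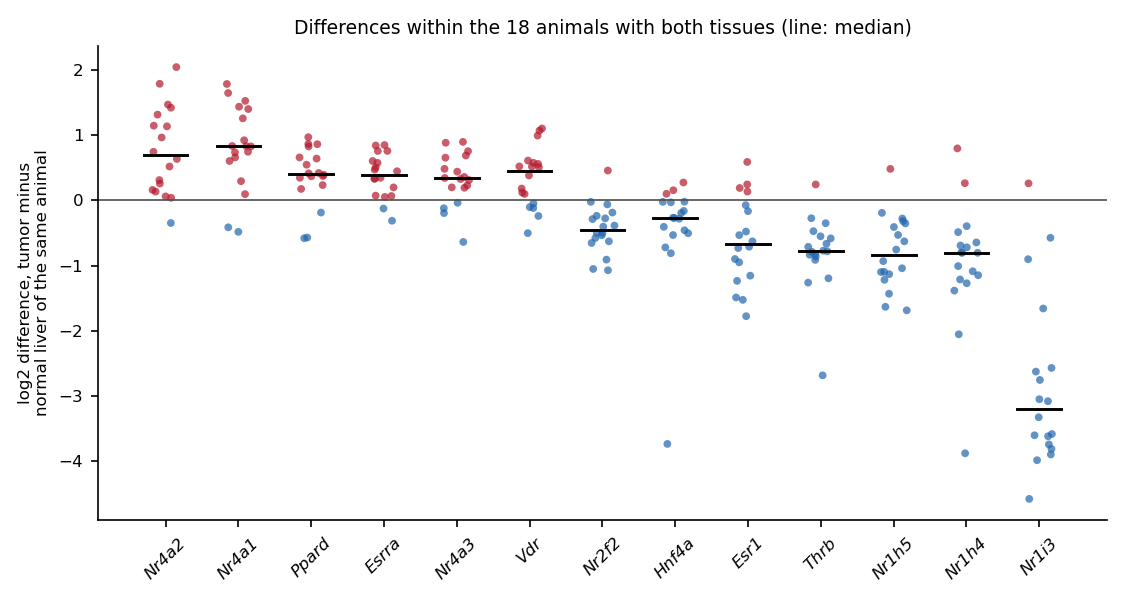
Log2 difference between the tumor and the normal liver of the same animal (vertical axis) for 13 receptor genes in the 18 animals with both tissues, with 1 point per animal and a line at the median. The median difference was -3.20 for Nr1i3 and 0.83 for Nr4a1, and tumor 9 is the lowest point for Nr1i3, Hnf4a, Thrb, Nr1h4 and Esrra.

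Genes that these receptors control were counted from lists of known targets. The lists were chosen with earlier results of these data known, so their shares beside those of all genes are descriptive. CAR targets held 16 measured genes, of which 8 were lower and 3 higher in tumors, with a median log2 change of -0.44. Cyp2c37 was 7.67-fold lower (log2 change -2.94, SE 0.40), Cyp2c29 6.04-fold lower and Cyp1a2 4.53-fold lower, all 3 being drug-oxidising enzymes of family 1 or 2 and all lower in 17 of 18 pairs. Cyp2b10, the best known CAR target, was 3.66-fold higher in tumors (adjusted p = 1.10e-05, higher in 17 of 18 pairs). Close relatives in the Cyp2c and Cyp3a families can share probes, so single members of them are uncertain. PXR targets were lower in 8 of 13 and higher in 0, and the oxidising enzyme genes Cyp3a11, Cyp3a44 and Cyp3a16 were 2.41-fold, 4.59-fold and 4.95-fold lower. The tumor means of Cyp3a44 (7.15) and Cyp3a16 (5.35) were below the background limit, so their folds are not exact. The carboxylesterase gene Ces2a was 2.76-fold lower.

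FXR targets were lower in 8 of 15 and higher in 0, with a median of -0.58. The list was not split into genes that FXR induces and genes that it represses, so its counts give no direction of FXR activity. The bile acid importer Slc10a1 was 3.92-fold lower, the liver-made plasma protein Fetub 2.45-fold lower and Baat, which joins bile acids to amino acids, 1.94-fold lower. Cyp7a1, the rate-limiting enzyme of bile acid synthesis, which FXR represses, was 4.49-fold lower. Thyroid hormone receptor targets were lower in 6 of 12 and higher in 1: Thrsp, a lipogenic protein gene, was 4.62-fold and Dio1, which activates thyroid hormone, 2.23-fold lower, and Idh3a, a citric acid cycle enzyme gene, was 2.45-fold higher. HNF4 alpha targets were lower in 12 of 22 and higher in 0, led by the transporter Slco1b2 (11.4-fold lower) and including the apolipoprotein gene Apoa1 (1.67-fold lower, in 18 of 18 pairs).

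PPAR alpha targets were lower in 11 of 23 and higher in 1. Cyp4a14, a fatty acid oxidising enzyme, was 3.36-fold, the fatty acid binding protein gene Fabp1 2.95-fold, the thioesterase gene Acot3 2.04-fold and the lipase gene Mgll 1.68-fold lower, although Ppara itself was not called. The list of PPAR gamma lipid storage genes went the other way, with 4 of 11 higher and 0 lower: Fabp4, a fatty acid binding protein, was 4.63-fold, the lipase gene Lpl 2.68-fold and Mogat1, which makes diacylglycerol, 1.64-fold higher, although Pparg itself was not called. The mean of Mogat1 in normal livers, 7.03, was below the background limit. LXR targets were split, with 5 of 14 higher and 4 lower. Lpl was among those that rose, and the fatty acid synthase gene Fasn (1.90-fold) and the lipid transfer gene Pltp (1.67-fold) among those that fell.

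The remaining target lists moved in both directions. Glucocorticoid receptor targets were higher in 2 and lower in 4 of 17, with Sgk1 1.67-fold higher and Fkbp5, a chaperone of the receptor, 1.41-fold lower. Retinoic acid receptor targets were higher in 1 and lower in 2 of 8: Tgm2, a transglutaminase gene, was 2.30-fold higher, and Cyp26a1, which breaks down retinoic acid, 2.71-fold and the homeobox gene Hoxb4 1.16-fold lower. ROR alpha targets were higher in 2 and lower in 4 of 12, with the clock gene Arntl 1.90-fold higher and the P450 gene Cyp2c70 2.40-fold and the vasopressin receptor gene Avpr1a 1.91-fold lower. Estrogen receptor targets were higher in 1 and lower in 4 of 9, Esr1 itself included, with the cytokine receptor gene Lifr 1.73-fold and the P450 gene Cyp2b9 5.20-fold lower. The list for LRH-1 and SHP, which mixes bile acid enzymes with other genes, was higher in 4 and lower in 2 of 12. Those higher were the sterol exporter Abcg5 (2.00-fold), Abcg8, the lipoprotein receptor Scarb1 (1.77-fold) and Plk3. Those lower were Cyp7a1 (4.49-fold) and Cyp27a1, an oxysterol and bile acid enzyme (2.20-fold), and Cyp8b1 and Cyp7b1 were not called.

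Coregulators, the proteins that receptors recruit, were higher in 9 of 24 and lower in 2. Ppargc1a (PGC-1 alpha, a partner of PPAR, ERR and HNF4 alpha) was 4.11-fold higher in tumors, in 16 of 18 pairs, and the deacetylase gene Hdac3 and the methyltransferase gene Prmt1 were 1.30-fold and 1.32-fold higher. The mean of Prmt1 in normal livers, 7.09, was below the background limit. Enzymes that make or break receptor ligands were lower in 10 of 26 and higher in 1. Hsd11b1, which activates glucocorticoid, was 2.06-fold lower, Cyp46a1, which makes an oxysterol, 1.66-fold lower, and Hsd17b6, a steroid and retinoid enzyme, 3.87-fold lower. In all lists the background was 17.9% higher and 14.3% lower. Lists overlap, so Cyp7a1, Slc10a1 and Lpl each count in more than 1. The receptor genes Nr0b2, Rarb, Pgr and Esr1 also count in some of them.

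Without tumor 9, 18.6% of all genes were higher. Higher calls then came to 7 of 17 glucocorticoid receptor targets, 3 of 12 thyroid hormone receptor targets and 3 of 22 HNF4 alpha targets. They came to 3 of 26 ligand makers and breakers, 2 of 9 estrogen receptor targets, 1 of 13 PXR targets and 1 of 15 FXR targets. Without the 7 arrays against the gender label, 3 of 14 LXR targets were higher, against 16% of all genes. Lower coregulators then numbered 1 of 24, against 11% of all genes. No other count of these lists moved by over 1.5 times without tumor 9 or without the 7 arrays. Among the 18 pairs on their own, 5 of 24 coregulators were higher and 1 lower, and 3 of 14 LXR targets were higher and 2 lower. Of all genes 12.6% were higher and 8.13% lower in the pairs. In the animals without a pair, 2 coregulators were higher, against 6.18% of all genes. There 3 CAR, 4 PXR, 5 FXR, 3 HNF4 alpha, 2 thyroid hormone receptor and 9 PPAR alpha targets were lower, against 3.17% of all genes. The ligand makers and breakers held 5 lower genes. Glucocorticoid receptor and ROR alpha targets held 1 lower gene each, and retinoic acid and estrogen receptor targets 0. Glucocorticoid receptor, ROR alpha and estrogen receptor targets held 0 higher genes. Of the LXR targets 1 was higher and 2 were lower, and of the LRH-1 and SHP list 2 were higher and 1 lower.

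Cell type markers moved too. Of 15 sinusoidal endothelium markers 8 were lower and 2 higher in tumors, and their summed log2 value ran from 118.0 to 150.4 in tumors and from 134.2 to 151.2 in normal livers. Of 15 Kupffer cell and macrophage markers 6 were lower and 4 higher, with sums of 122.6 to 152.1 in tumors and 125.0 to 165.1 in normal livers. Stellate cell and fibroblast markers were lower in 7 and higher in 5 of 19, with sums of 141.2 to 181.1 in tumors and 153.8 to 187.6 in normal livers. Markers of other vessels were lower in 2 and higher in 4 of 10 (74.1 to 85.6 in tumors, 71.6 to 84.8 in normal livers). Cholangiocyte markers were lower in 4 and higher in 0 of 8 (50.4 to 55.5 in tumors, 51.3 to 68.4 in normal livers). Hepatocyte markers were lower in 3 and higher in 0 of 10, and without tumor 9 lower in 7 and higher in 3. T and natural killer cell markers were higher in 2 and lower in 0 of 13, and B and plasma cell, neutrophil and red cell markers were not called. Without tumor 9, 3 of 8 B and plasma cell markers and 2 of 13 T and natural killer cell markers were lower, and 1 of the 13 was higher. Among the 18 pairs on their own, 1 cholangiocyte marker and 4 of 12 neutrophil markers were lower, 2 Kupffer cell and macrophage markers were higher, and 1 T and natural killer cell marker was higher and 1 lower. In the animals without a pair 0 cholangiocyte, 1 hepatocyte and 4 sinusoidal endothelium markers were lower, and 1 sinusoidal marker was higher. There 5 stellate cell and fibroblast markers were lower and 0 higher, and 4 Kupffer cell and macrophage markers were lower and 2 higher. T and natural killer cell markers had 0 higher. The shares of all genes there were 6.18% higher and 3.17% lower. At or below the background limit in both tissues were 9 of 12 neutrophil, 8 of 13 T and natural killer cell and 6 of 8 cholangiocyte markers. So were 4 of 10 markers of other vessels, 3 of 8 of B and plasma cells, 1 of 19 of stellate cells and fibroblasts and the 1 red cell marker. Counts and sums of lists made mostly of such markers are uncertain. For sinusoidal endothelium and for Kupffer cells and macrophages 0 markers were at or below it. The part of these cells in the receptor changes was not tested.

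Across the 28 tumor animals (the 2 tumors of the same animal averaged), 63 relations of 7 receptor genes with the 9 marker sums were computed by Spearman's rho, with 100000 permutations and adjustment over the 63, and 7 passed. Thrb followed the hepatocyte sum (rho 0.816, Pearson's r 0.694, permutation p = 1e-05 for both, the smallest such a test can give, adjusted p for rho 0.000315), with r of 0.844 without the 2 samples farthest on the x axis. Esr1 followed it by rank (rho 0.844, adjusted p = 0.000315) but r was 0.305 (permutation p = 0.103), and 0.812 without tumor 9. Nr1h4 followed it with rho 0.637 and r 0.781 (permutation p = 3.9e-04 and 2e-05, adjusted p for rho 0.00819), r being 0.523 without the 2 farthest. Nr1i3 followed the sums of sinusoidal endothelium (rho 0.547, r 0.673, permutation p = 0.00323 and 4e-05) and of Kupffer cells and macrophages (rho 0.538, r 0.605, permutation p = 0.00350 and 5.1e-04), each with an adjusted p of 0.0365 for rho. Without the 2 farthest samples these r were 0.543 and 0.496. Thrb and Esr1 followed the sinusoidal sum with rho 0.546 and 0.535 (permutation p = 0.00319 and 0.00406, adjusted p = 0.0365 for both) and r 0.609 and 0.514 (permutation p = 6e-04 and 0.00498). No relation of Nr4a1, Nr4a2 or Nr1h5 with a marker sum passed by rho. By Pearson's r that of Nr1h5 with the sinusoidal sum did (r 0.648, adjusted p for r 0.00268, rho 0.375, permutation tests), as did that with the Kupffer cell sum (r 0.509, adjusted p for r 0.0392, rho 0.314), where r was 0.293 without the 2 farthest samples.

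Relations between the receptor genes themselves were computed for 496 pairs of the 32 genes brighter than the limit in tumors. By Spearman's rho with adjustment over the 496, 58 positive and 5 negative pairs passed. The genes share arrays, and genes on an array are not independent, so many of these pairs follow from each other. Nr1h3 took part in 13 of the positive pairs and Thrb in 12. Nr4a1 and Nr4a2 went together most closely (rho 0.809, r 0.802, permutation p = 1e-05 for both, adjusted p for rho 0.000551). Next came Rxra with Hnf4a (rho 0.803, r 0.899), Nr1i2 with Hnf4a (rho 0.790, r 0.940), Ppara with Nr2c1 (rho 0.788, r 0.452) and Nr1h3 with Thrb (rho 0.787, r 0.825), with permutation p of 1e-05 for each rho and adjusted p of 0.000551. The permutation p of r was 1e-05, 2e-05, 0.0303 and 1e-05 in that order. Without the 2 farthest samples r was 0.755, 0.845, 0.674, 0.609 and 0.780 from the Nr4a pair on. Tumor 9 is the far point of the Hnf4a pairs, and rho without it was 0.780 with Rxra and 0.766 with Nr1i2.

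**Figure D4:**
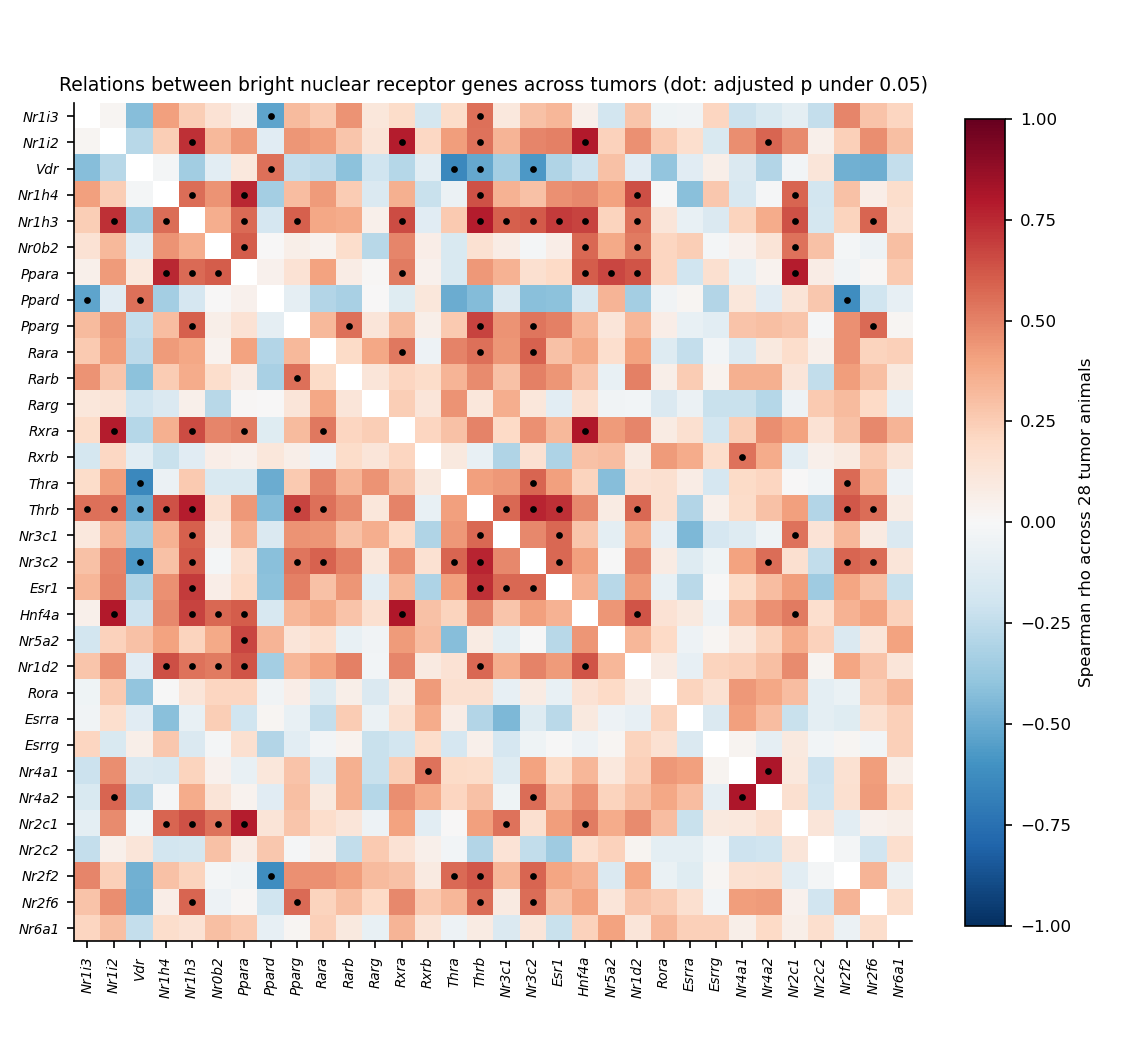
Spearman's rho across 28 tumor animals between the 32 receptor genes brighter than the limit in tumors (red positive, blue negative, both axes list the genes). Dots mark the 63 pairs with an adjusted p under 0.05, 58 positive and 5 negative.

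Each of the 5 negative pairs held Vdr or Ppard. They were Vdr with Thra (rho -0.645, r -0.616, permutation p = 2.7e-04 and 4.6e-04, adjusted p for rho 0.00788), Ppard with Nr2f2 (rho -0.620, r -0.538, permutation p = 5.3e-04 and 0.00299, adjusted p 0.0114) and Vdr with Nr3c2 (rho -0.578, r -0.561, permutation p = 0.00146 and 0.00190, adjusted p 0.0221). Nr1i3 with Ppard (rho -0.531, r -0.654, permutation p = 0.00442 and 2.1e-04, adjusted p 0.0372) and Vdr with Thrb (rho -0.512, r -0.514, permutation p = 0.00572 and 0.00497, adjusted p 0.0450) followed. Without the 2 farthest samples r was -0.635, -0.582, -0.520, -0.581 and -0.471 in that order. The 16 male and 11 female animals taken alone gave rho of the same sign for all 10 pairs named here, for example -0.288 and -0.764 for Nr1i3 with Ppard.

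**Figure D5:**
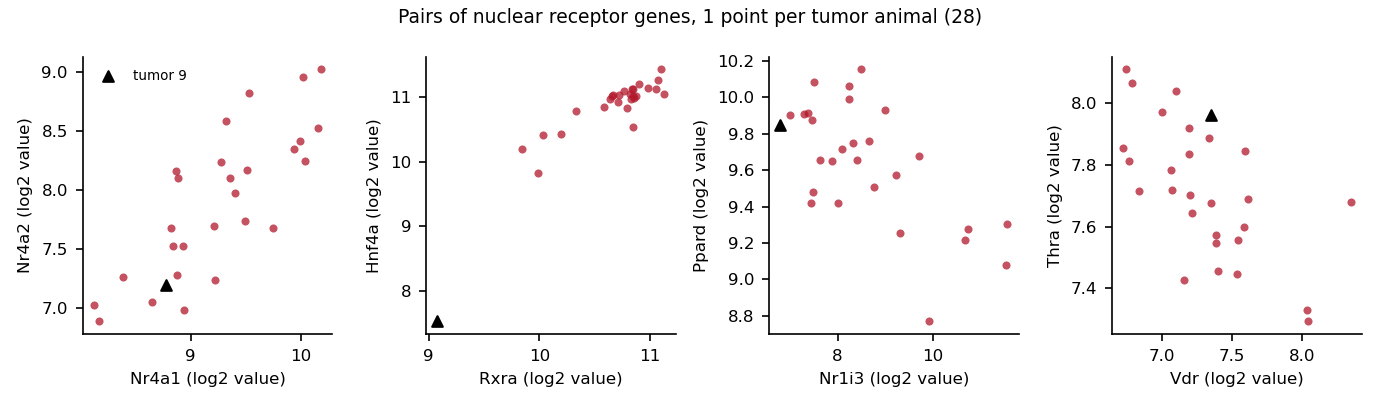
Log2 values of 4 pairs of receptor genes in the 28 tumor animals, 1 point per animal, with tumor 9 as a black triangle. Nr4a1 and Nr4a2 rise together (rho 0.809), Rxra and Hnf4a do so with tumor 9 far below the rest, and Ppard and Thra run against Nr1i3 (rho -0.531) and Vdr (rho -0.645).

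Receptors were also set against a textbook target each, 17 pairs in all with values, and 7 passed by rho after adjustment over the 17. Thrb with Dio1 had rho 0.676 and r 0.554 (permutation p = 1.2e-04 and 0.00301, adjusted p for rho 0.00204). Nr1h4 with the bile salt exporter Abcb11 had rho 0.635 and r 0.778 (permutation p = 4.4e-04 and 4e-05, adjusted p 0.00374), and Nr1i3 with Cyp2c37 had rho 0.567 and r 0.761 (permutation p = 0.00182 and 1e-05, adjusted p 0.0103). Rarb with Cyp26a1 (rho 0.530, r 0.685, adjusted p 0.0177), Nr1d2 with the clock gene Per3 (rho 0.494, r 0.484, adjusted p 0.0282), Nr1h4 with Nr0b2 (rho 0.446, r 0.540, adjusted p 0.0456) and Hnf4a with Apoc3 (rho 0.443, r 0.799, adjusted p 0.0456) passed as well. Their permutation p for rho were 0.00417, 0.00829, 0.0182 and 0.0188 and for r 5e-05, 0.00907, 0.00611 and 0.00161. Without the 2 farthest samples r was 0.579, 0.475, 0.631, 0.462, 0.541, 0.117 and 0.408 in the order given, so the r of Nr1h4 with Nr0b2 rests on those samples. The rho of that pair was 0.319 without them and 0.382 without tumor 9. Without tumor 9, r was 0.279 for Nr1h4 with Nr0b2 and 0.329 for Hnf4a with Apoc3.

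The other 10 target pairs did not pass by rho. Nr1i3 with Cyp2b10 had rho -0.333 and r -0.139 (permutation p = 0.0854 and 0.483, adjusted p for rho 0.161), and r was -0.439 without tumor 9. Esr1 with Lifr had rho 0.398 (adjusted p 0.0754), and Nr1h3 with Abcg5, Nr1i2 with Cyp3a11, Nr5a2 with Cyp8b1, Rora with Cyp7b1 and Nr4a1 with the early growth gene Egr1 had rho between 0.126 and 0.304. By Pearson's r 3 of these passed: Nr1h3 with Abcg5 (r 0.514, adjusted p for r 0.0115), Nr1i2 with Cyp3a11 (r 0.559, adjusted p for r 0.0115) and Rora with Cyp7b1 (r 0.555, adjusted p for r 0.00853). Without tumor 9 their r was 0.267, 0.213 and 0.319. Nr3c1 with Fkbp5, Nr0b2 with Cyp7a1 and Pparg with Cidec had rho of -0.175, -0.036 and -0.032.

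Among 11885 genes brighter than the limit, those most like Nr1i3 across the 28 tumor animals were Fcna (rho 0.823, r 0.855), Cd5l (rho 0.811, r 0.784), Cyp2e1 (rho 0.811, r 0.838), Cyp46a1 (rho 0.787, r 0.831) and Colec10 (rho 0.787, r 0.877). Cd5l is on the Kupffer cell marker list and Colec10 on the stellate list. All 5 fell in tumors. Those most like Nr4a1 were Abhd17c (rho 0.822, r 0.688), Lrrc58 (rho 0.819, r 0.791), Nr4a2, Nnmt, a nicotinamide methyltransferase gene (rho 0.793, r 0.736), and Fst, the gene of the activin-binding protein follistatin (rho 0.782, r 0.744), and all 5 rose. These values describe the tumors and were chosen as the highest of many, so no p is given.

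Sex was compared next. In normal liver 0 receptor genes were called between females and males (limma, lowest adjusted p 1.00, and 0 had an unadjusted p under 0.05), where 0.0496% of all genes were. The difference between the tumor change in females and that in males was called for 0 receptor genes and 0% of all genes. In it 2 receptor genes had an unadjusted p under 0.05, and the lowest adjusted p was 0.949. Nr1i3 changed by -2.005 in females and -3.22 in males, a difference of 1.22 (SE 0.58, unadjusted p = 0.0390), and Nr1h5 by -0.54 in females and -1.13 in males, a difference of 0.59 (SE 0.29, unadjusted p = 0.0461).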

How the data were processed

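The authors deposited log2 values, 1 for each transcript cluster on each array. Per the submitters' processing notes they used Affymetrix Expression Console, whose version and algorithm are not stated in the labels or files. The array medians ran from 6.72 to 7.15. No detection calls were used, and the number of arrays limits the precision. Scanner output was not used here.

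Groups came from the tissue label and animals from the titles. Replicate numbers only name arrays. Pairs come from shared animal titles. Deviations of the arrays from their group mean had a median correlation of 0.241 between tissues of the same animal (above 0.1 in 15 of 18 pairs) and -0.020 between different animals. Nothing else in the labels separates biological from technical spread.

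Of 41345 clusters, 23521 had 1 gene symbol, and the brightest per symbol gave 22180 genes. R 4.3.3 with limma 3.58.1 (and statmod 1.5.0) fitted tumors against normal liver with the animal as a random block (duplicateCorrelation, block correlation 0.145), trended eBayes, and p-values adjusted by Benjamini-Hochberg over all genes. Sex contrasts came from a fit of 4 groups. Relations across tumors used two-sided permutation tests (100000 resamples, smallest p 1e-05) in Python 3.11.15. In simulated tumor comparisons both groups had the spread of the normal livers, and 100 genes were changed at each size. The fit recovered 71% of changes of -0.3, 93% of -0.5, 92% of 0.5 and 100% of 1, and 5.6% of its calls were false. The real tumors spread more (median SD ratio to normal liver 1.12 over all genes), so recovery at their spread was not measured.

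The members, gene lists and cell type markers were chosen with earlier results of these data known. Every listed receptor gene is named, those called with a change of at least 0.5 with full values. From each list, up to 3 called genes of smallest adjusted p and the gene of largest change are named. In the list for LRH-1 and SHP every called gene is named. Every target pair (so also Cyp2b10), the 5 largest positive and 5 largest negative receptor pairs, and the 5 genes most like Nr1i3 and Nr4a1 are named too. Of the 19 target pairs listed, 17 had values, and 37 list entries had no cluster of their own. Alternatives were quantile normalization, median centring, other treatments of the animal, sex as a covariate, array weights, arrays left out, dim genes left out, the mean of all clusters and no trend. Upstream sequences are RefSeq's, on GRCm38.p6.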

Additional observations from a re-analysis of the deposited data

How the results depend on the processing

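Of the 20 called receptor genes, 7 kept their call and direction under every alternative that held them (14, or 13 for the dim Nr1h5): Nr1i3 (log2 change -2.98 to -2.70), Nr1h4, Nr1h5, Thrb, Ppard, Nr4a1 and Nr4a2. The mean of all clusters left the values of all called genes as they were, since among the receptor genes only Nr3c2 had a second cluster of its own. The cluster that Ppard shares with another symbol was not part of it. Higher calls numbered 6 in the main analysis (17.9% of all genes) and lower calls 14 (14.3%). The count of higher calls was 3 in animals without a pair (6.18% of all genes), which leaves 22 arrays, and between 4 and 7 under the others. Lower calls numbered 7 after median centring (7.79% of all genes), 8 among the 18 pairs on their own (animal as a fixed replicate block, 8.13%), 4 in animals without a pair (3.17%) and 9 where only genes above the odorant receptor limit were fitted, which leaves out dim genes (17.4%). With no replicate block 11 were lower (12.2%), and with array weights 20 (27.8%). Tumor 9 left out gave 7 higher (18.6%) and 13 lower (15.1%), and the 7 arrays against the gender label left out gave 6 (16%) and 10 (11%). Leaving out normal livers 16 and 27, chosen after seeing the data, gave 6 (19.8%) and 14 (17.1%). Median centring moved the median change of all genes to 0.03. Changes of sign occurred among uncalled receptor genes alone. Under median centring the log2 change of Pparg became 0.0154, that of Rara 0.0238, Thra 0.0247 and Nr6a1 0.00534. In the 18 pairs Nr0b2 became 0.113 and Rara 0.0104. In animals without a pair Nr0b1 became -0.0519, Nr5a2 0.0298 and Nr2c2 -0.144. With array weights Nr1i2 became 0.0932, Pparg 0.0304 and Nr5a2 0.00100. Without tumor 9 Nr1i2 became 0.0577, Pparg 0.00454 and Nr5a2 0.0419. Nr2c2 became -0.0165 under quantile normalization and -2.5e-05 without the 7 arrays. By Pearson's r, 99 positive and 6 negative receptor pairs passed, against 58 and 5 by rho, and the relations of Nr0b2 with Cyp7a1 (0.079) and Pparg with Cidec (0.028) turned positive. The cause of these moves was not tested. The sex counts stayed at 0 with median centring and without the 7 arrays. Scanner background and detection calls were not used, so a dim gene's level is known only against the odorant receptor limit.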
